A study of Mus musculus with 9 samples.

Results

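The mitochondrial genes described here are rows of the deposited brain RNA-seq table whose symbol begins with the letters of a respiratory chain subunit, a mitochondrial ribosomal protein, an import receptor or a mitochondrial carrier. The letters searched were Nduf, Cox, Uqcr, Sdh, Atp5, Mrpl, Mrps, Timm, Tomm, Slc25 and mt-. Described here are 16 of the 689 genes in the table, under 8 of the 11 stems, and rows beginning with Sdh, Timm or mt- were not analysed here. By role, 3 of the 16 belonged to complex I (*Ndufa7*, *Ndufc2*, *Ndufs4*), 1 to complex III (*Uqcr10*), 3 carried the name of complex IV (*Cox6a1*, *Cox7a2l*, *Cox8a*) and 1 to ATP synthase (*Atp5c1*). The mitochondrial ribosome had 2 proteins of the large subunit (*Mrpl33*, *Mrpl42*) and 2 of the small subunit (*Mrps6*, *Mrps33*). Another 2 were import receptors of the outer membrane (*Tomm20*, *Tomm70a*), and 2 were carriers (*Slc25a16*, *Slc25a36*).

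The libraries came from male C57BL/6J mice, with 3 mice in each of 3 groups. Young controls came from JAX and were 5 months old by the sample labels (the Results of the paper give a slightly younger age). Aged controls came from NIA and were 24 months old. Both groups had 6 weeks of control diet. Aged-repopulated mice, also 24 months old and from NIA, ate PLX5622 for 2 weeks and control diet for the next 4 weeks. PLX5622 blocks CSF1R, a receptor that microglia need to survive, and microglia return once the drug is withdrawn. Age and supplier cannot be told apart in these libraries. RNA was taken from 1 frozen hemibrain per mouse, so fewer cells of a type and less RNA per cell cannot be told apart. Young repopulated and aged eliminated libraries were not analysed here.

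The respiratory chain sits in the inner mitochondrial membrane. Complexes I, III and IV pass electrons to oxygen and pump protons, and ATP synthase uses the returning protons to make ATP. A few subunits are encoded in the mitochondrial genome and made on mitochondrial ribosomes, whereas all the genes described here are nuclear and most of their proteins enter through receptors of the outer membrane. Carriers of the SLC25 family then move nucleotides, cofactors and metabolites across the inner membrane, and neurons rely on this machinery for most of their ATP.

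The values were RPKM, the reads of a gene divided by the length of its transcript and the size of the library. Differences between groups still followed transcript length, as described further on. The table holds genes that passed the study's filter of 10 RPKM, below which single libraries can lie, and that its own model had called on data that include these libraries. Hence a large share of called genes was fixed by that choice, and the members' counts in each comparison stand beside the share over the whole table. Read depth was unknown, so no counting error is given, and precision rests on the 3 mice of a group. Groups were compared with limma on log2(RPKM + 1) over all 689 genes, with Benjamini-Hochberg adjustment and a threshold of 0.05, and each difference is given on that scale with its standard error. Over the whole table, summed RPKM was 22242 to 22330 in young mice, 23629 to 24853 in aged controls and 22861 to 23632 after repopulation, with no overlap between young and aged controls.

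The promoters of 3 genes are shown first because they carry the letters of 2 factors known for nuclear genes of mitochondria, NRF1 and GABPA, and because their genes differ in direction with age: *Cox6a1* and *Atp5c1* were higher in aged controls and *Tomm70a* was lower. The sequences are bases before the start site that RefSeq gives (GRCm38.p6), which differs from the GENCODE gene ends printed below, so that each stretch lies partly or wholly inside the GENCODE gene. They are written 5′ to 3′ on the strand of the gene, with capitals for matches to GCGCANGCG (NRF1) or CCGGAAG (GABPA) on either strand. They lie at chr5:115348959-115349128 (minus strand), chr2:10080433-10080492 (minus strand) and chr16:57121614-57121713 (plus strand), in the order printed.

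*Cox6a1*: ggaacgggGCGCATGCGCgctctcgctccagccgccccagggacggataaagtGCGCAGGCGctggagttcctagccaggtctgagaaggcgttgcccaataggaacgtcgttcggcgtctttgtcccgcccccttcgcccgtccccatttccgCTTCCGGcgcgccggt
*Atp5c1*: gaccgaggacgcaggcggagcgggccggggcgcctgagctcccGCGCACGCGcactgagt
*Tomm70a*: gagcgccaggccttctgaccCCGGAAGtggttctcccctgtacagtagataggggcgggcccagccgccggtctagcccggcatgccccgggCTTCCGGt

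In the *Cox6a1* promoter the NRF1 letters occur at 2 places, and at the first of them both strands match in overlapping letters. Promoter sequence (250 bases before to 50 after the start) was found for all 16 genes. A gene was counted when any of its promoters held the letters. The NRF1 letters were in 3 of the 16 (*Atp5c1*, *Cox6a1*, *Tomm20*). That stands against 17.2% of the 571 genes of the table with promoter sequence and 7.03% of all 27025 genes with it. The GABPA letters were in 5 of the 16 (*Cox6a1*, *Cox8a*, *Mrpl33*, *Mrps33*, *Tomm70a*), against 21.5% and 9.93%. AAGATGGC, the letters of YY1, were in *Mrpl42* and *Ndufs4*, against 7.88% and 3.19%. TATAAA was in *Ndufa7*, against 10.7% and 15.7%, and TCAAGGTCA, the letters of ESRRA, was in none of the 16, against 0.350% and 0.466%. A match describes letters in this window and was not tested as a binding site.

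With age, most of these genes were higher. Of the 16, 10 rose and 2 fell in aged controls against young controls (limma, adjusted p under 0.05), beside 46.3% of the table called higher and 16.5% called lower. The 4 without a call were *Mrps6*, *Mrps33*, *Tomm20* and *Slc25a16*. The median difference was 0.18, against 0.10 over the table, and single genes lay between -0.14 and 0.26. The 3 young and the 3 aged control values did not overlap for 14 of the 16, against 70.1% of the table. Centring each library on its median, which took the table's median difference with age from 0.10 to -0.01, left 3 called higher (*Mrpl33*, *Uqcr10*, *Cox6a1*) and 3 lower (*Tomm70a*, *Slc25a36*, *Tomm20*), beside 78 higher and 215 lower in the table. Quantile normalization left 2 higher (*Mrpl33*, *Mrpl42*) and the same 3 lower, beside 88 and 189. A correction for GC content left 5 higher (*Mrpl33*, *Mrpl42*, *Uqcr10*, *Ndufc2*, *Ndufs4*) and 2 lower (*Tomm70a*, *Slc25a36*), beside 139 and 153 of 686. By sign alone 13 of the 16 were above 0, beside 467 of the 689 genes of the table, against 10 after centring and 8 after quantile normalization. A correction for transcript length, described further on, left 3 above 0 and 13 below, with 0 called higher and 1 lower.

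**Figure D1:**
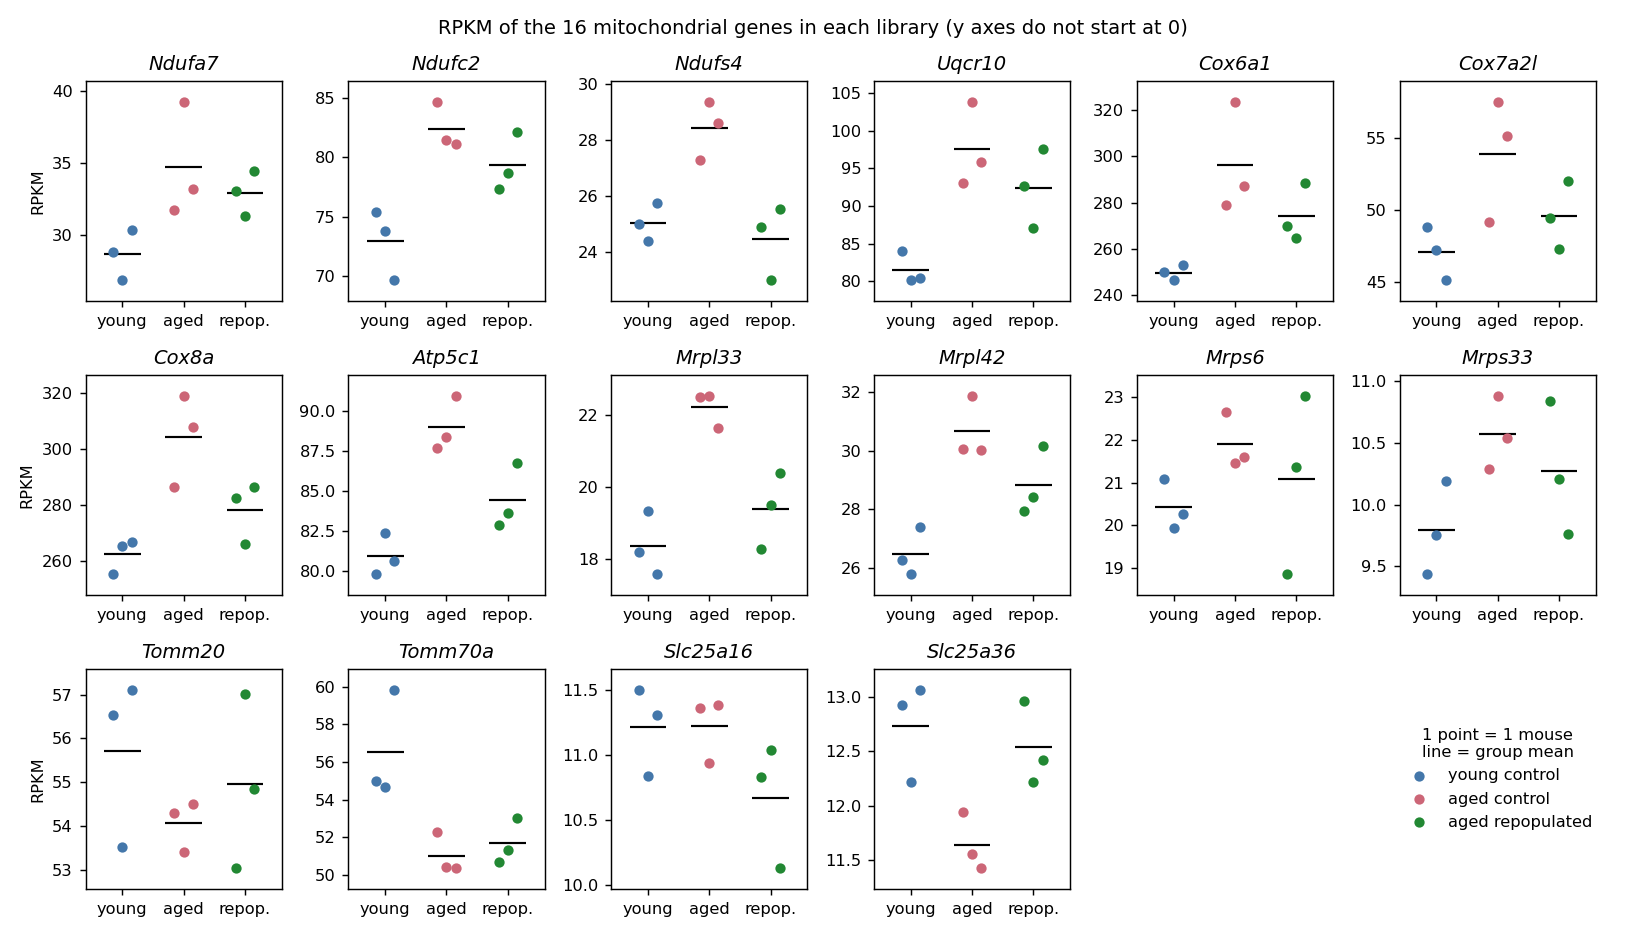
RPKM of each of the 16 mitochondrial genes (1 panel a gene, y axes not starting at 0), with 1 point for each mouse and a line at the mean of the 3 mice of a group (young control, aged control, aged repopulated). All 3 aged control values of *Uqcr10*, *Cox6a1* and *Mrpl33* lie above the 3 young values, and all 3 aged control values of *Tomm70a* and *Slc25a36* lie below them.

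Complex I feeds electrons from NADH into the chain, and its 3 members, all accessory subunits, were each higher in aged controls. *Ndufa7* (chr17:33824572-33838317, plus strand, mm10) was at 28.8, 26.8 and 30.3 RPKM in the young controls and at 31.7, 39.2 and 33.2 in the aged controls. The groups did not overlap, and aged control replicate 2 was well above its fellows. The rise was 0.26 ± 0.08 (SE, adjusted p = 0.0171, limma), and without young control replicate 2 it was no longer called (adjusted p = 0.0537). Without aged control replicate 2 it was 0.18 (adjusted p = 0.0412). *Ndufc2* (chr7:97400003-97407802, plus strand), part of the membrane arm, was at 75.4, 73.8 and 69.6 RPKM in young and 84.7, 81.5 and 81.2 in aged controls. Its lowest aged value was thus above its highest young value, and it rose by 0.17 ± 0.04 (adjusted p = 0.00962). *Ndufs4* (chr13:114287795-114388258, minus strand), a subunit whose loss in mice causes a fatal encephalopathy, was at 25.0, 24.4 and 25.7 RPKM in young and 27.3, 29.3 and 28.6 in aged controls. These values did not overlap either, and the rise was 0.18 ± 0.05 (adjusted p = 0.0126). None of the 3 complex I calls held after centring or quantile normalization, and *Ndufc2* turned to -0.02 after the latter.

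*Uqcr10* (chr11:4701973-4704342, minus strand), a small subunit of complex III, was at 84.0, 80.2 and 80.5 RPKM in the young controls. The aged controls were at 93.1, 104 and 95.8, all higher. The rise of 0.25 ± 0.05 (adjusted p = 0.00789) corresponded to a mean 19.6% above the young mean.

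Complex IV, cytochrome c oxidase, hands electrons to oxygen, and the 2 structural subunits measured were the most abundant of the 16 genes per length. *Cox6a1* (chr5:115345642-115348981, minus strand) was at 249.8, 247 and 253 RPKM in young controls and at 279, 323 and 287 in aged controls. The young mice were close together, with an SD of 3.15, and the aged mice ranged more widely, with an SD of 23.7. *Cox6a1* rose by 0.24 ± 0.06 (adjusted p = 0.00962). *Cox8a* (chr19:7215153-7217616, minus strand), a small subunit, was at 255, 265 and 267 RPKM in young and at 286, 319 and 308 in aged controls, again without overlap. It rose by 0.21 ± 0.05 (adjusted p = 0.00962). *Cox7a2l* (chr17:83501918-83517330, minus strand) was at 48.8, 47.2 and 45.1 RPKM in young and 49.2, 57.4 and 55.1 in aged controls. Its highest young and lowest aged values nearly met. The rise of 0.19 ± 0.06 (adjusted p = 0.0215) lost its call without young control replicate 3 (adjusted p = 0.0728), aged control replicate 2 (0.0773) or aged control replicate 3 (0.0618). Of the 3 genes only *Cox6a1* stayed called after centring (0.14, adjusted p = 0.0491) and none after quantile normalization, which turned *Cox8a* to -0.03, or GC correction.

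*Atp5c1* (chr2:10056016-10080510, minus strand) encodes the gamma subunit, the rotating axle of ATP synthase. It was at 79.9, 82.4 and 80.6 RPKM in young controls and at 87.7, 88.4 and 90.9 in aged controls, which did not overlap. Its rise was smaller than those of *Uqcr10* and *Cox6a1*, at 0.14, but so was its standard error of 0.03 (adjusted p = 0.0104). The call was lost after centring (0.03, adjusted p = 0.542) and GC correction (0.07, 0.0840), and the difference turned to -0.08 after quantile normalization. Over the 8 respiratory genes, summed RPKM was 847 to 851 in young and 939 to 1042 in aged controls. *Cox6a1* and *Cox8a* were the largest values in these sums. The sum over the whole table was also higher in aged controls, at 23629 to 24853 against 22242 to 22330 in young controls.

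Both proteins of the large subunit of the mitochondrial ribosome rose, whereas neither of the small subunit passed the threshold. *Mrpl33* (chr5:31596935-31664384, plus strand) was at 18.2, 19.3 and 17.6 RPKM in young controls and at 22.5, 22.5 and 21.6 in aged controls. The groups lay well apart, and the rise of 0.26 ± 0.05 (adjusted p = 0.00656) took the mean up by 21.1%. *Mrpl42* (chr10:95480805-95501940, minus strand) was at 26.3, 25.8 and 27.4 RPKM in young and at 30.1, 31.9 and 30.0 in aged controls. It rose by 0.20 ± 0.04 (adjusted p = 0.00789). *Mrps6* (chr16:92058270-92112227, plus strand) was at 21.1, 19.9 and 20.3 RPKM in young and at 22.6, 21.4 and 21.6 in aged controls. The groups did not overlap, but the difference of 0.10 ± 0.06 was not called (adjusted p = 0.185). *Mrps33* (chr6:39801804-39810988, minus strand) averaged 9.80 ± 0.378 RPKM (SD, n = 3) in young and 10.6 ± 0.296 in aged controls, a difference of 0.10 ± 0.04 (limma adjusted p = 0.0659). The difference between large and small subunit was not tested.

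Of the 2 import receptors, 1 fell and the other did not pass the test. *Tomm70a* (chr16:57121703-57156705, plus strand), the receptor for carrier precursors handed over by cytosolic chaperones, was at 55.0, 54.7 and 59.8 RPKM in young controls and at 52.3, 50.4 and 50.4 in aged controls. Every aged value was below every young value, and the gene fell by 0.14 ± 0.04 on the log2 scale (adjusted p = 0.0169). Young control replicate 3 was the highest, and without it the call was lost (difference -0.10, adjusted p = 0.0568). *Tomm20* (chr8:126930667-126945844, minus strand), the receptor for proteins with a presequence, was at 56.5, 53.5 and 57.1 RPKM in young and 54.3, 53.4 and 54.5 in aged controls, with overlap and a difference of -0.04 ± 0.04 (adjusted p = 0.327). The *Tomm20* difference was -0.07 without young control replicate 2 and -0.02 without young control replicate 3, and was not called in either. After centring each library on its median *Tomm20* was called lower, at -0.15 (adjusted p = 0.0184).

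Of the 2 carriers, 1 fell with age and 1 was not called. *Slc25a36* (chr9:97074961-97111157, minus strand), a carrier of pyrimidine nucleotides, was at 12.9, 12.2 and 13.1 RPKM in young and at 11.9, 11.6 and 11.4 in aged controls. The aged mice were all lower and the gene fell by 0.12 ± 0.04 on the log2 scale (adjusted p = 0.0210). That call was lost without young control replicate 1 (adjusted p = 0.0694) or 3 (0.0731), or aged control replicate 2 (0.0570) or 3 (0.0582). *Slc25a16* (chr10:62920633-62946498, plus strand) averaged 11.2 ± 0.339 RPKM in young and 11.2 ± 0.251 in aged controls, a difference of 0.0014 ± 0.04 (limma adjusted p = 0.972).

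Some libraries were high across many members. Aged control replicate 2 was the highest of its group for 9 of the 16 genes, as was young control replicate 3, whereas young control replicate 2 was the lowest for 10. In the aged-repopulated group replicate 3 was the highest for 12 of the 16. Summed over the 16 genes, RPKM averaged 1059.6 ± 7.86 (SD, n = 3) in young mice, 1200.0 ± 51.0 in aged controls and 1125 ± 38.2 after repopulation. Sums over the whole table averaged 22282, 24214 and 23374 in the same order. The median coefficient of variation of a member among the mice of a group was 3.28% in young mice, 2.89% in aged controls and 4.51% after repopulation.

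Most of the members have short transcripts. The median length of their longest coding transcript was 976.5 nt, against 3178.5 nt over the 686 genes of the table that matched the annotation. *Uqcr10* was the shortest at 434 nt and *Tomm70a* the longest at 5964 nt. All 13 members shorter than the median of the table were higher in aged controls (10 of them called, beside 237 of the 343 shorter genes of the table), and the 3 longer ones, *Tomm20*, *Slc25a36* and *Tomm70a*, were all lower (2 of them called, beside 100 of the 343 longer genes of the table called lower and 80 called higher). The same order ran through the table, where 90.7% of the 343 shorter genes and 44.9% of the 343 longer genes were higher with age. Across the 16 genes Spearman's rho between length and the age difference was -0.92, against -0.65 across the 670 other genes of the table. These points share the same 6 libraries and genes are not independent replicates, so the correlations are descriptions.

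**Figure D2:**
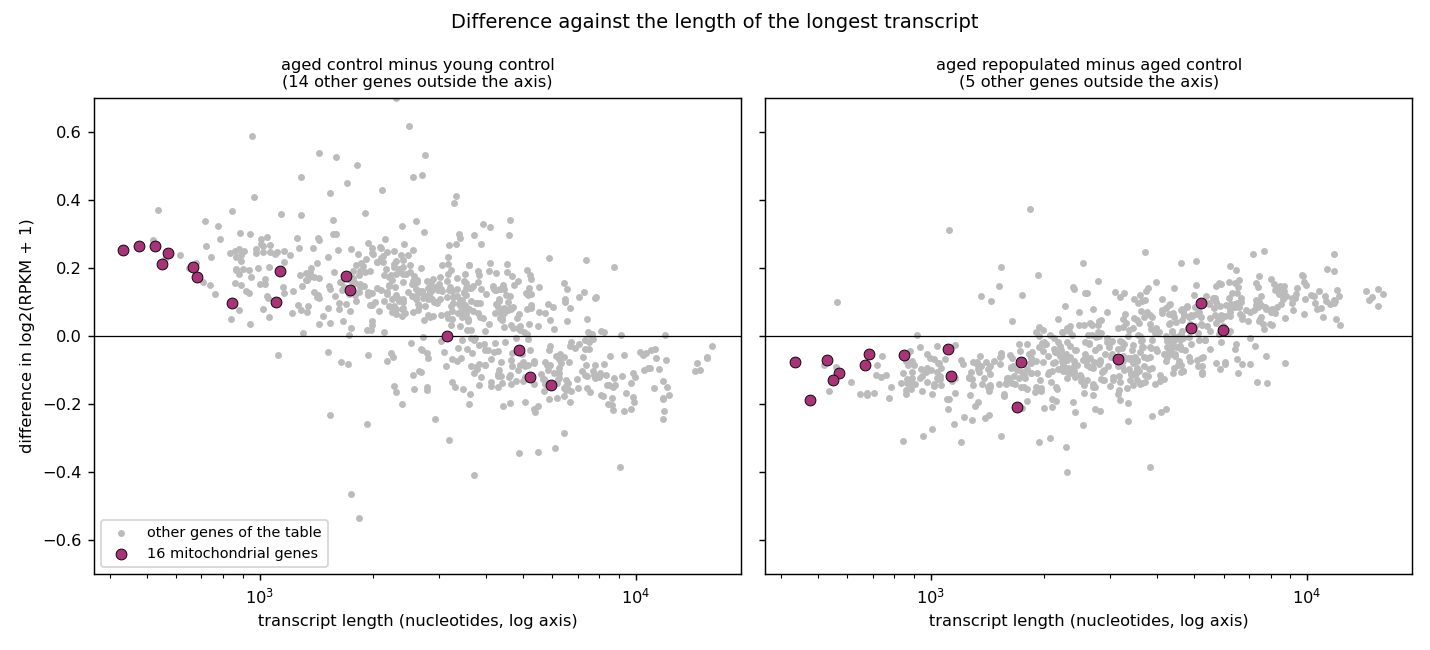
Difference in log2(RPKM + 1) against transcript length in nucleotides (log axis), for aged control minus young control on the left and aged repopulated minus aged control on the right, with the 16 mitochondrial genes as large purple points and the other genes of the table in grey. The shortest members sit high with age (*Uqcr10* at 0.25 and *Mrpl33* at 0.26) and the longest lowest (*Tomm70a* at -0.14), within the band of the other genes.

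When each library was corrected for a smooth trend on transcript length, most of the members' rises with age were reduced to near 0 or below it. The median became -0.04, with 3 genes above 0 and 13 below, where the table had 361 of 686 genes above 0 and a median of 0.0057. Of the 16 genes 1 was called, against 20.3% of the 686 genes. That gene was *Slc25a36*, at -0.11 ± 0.03 (limma adjusted p = 0.0481). *Tomm70a* was at -0.11 ± 0.04 (adjusted p = 0.0697) and *Tomm20* at -0.04. *Uqcr10* went from 0.25 to -0.02, *Mrpl33* from 0.26 to 0.00057, *Cox8a* from 0.21 to -0.04 and *Ndufs4* from 0.18 to 0.02. None of the 10 rises was called after the correction. The uncalled genes *Mrps6* (-0.12), *Mrps33* (-0.09) and *Slc25a16* (-0.08) went below 0. The trend was fitted over all genes of the table, in which short genes of other kinds also rose, and the part of transcript length, RNA quality or age in the members' rise was not tested.

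**Figure D3:**
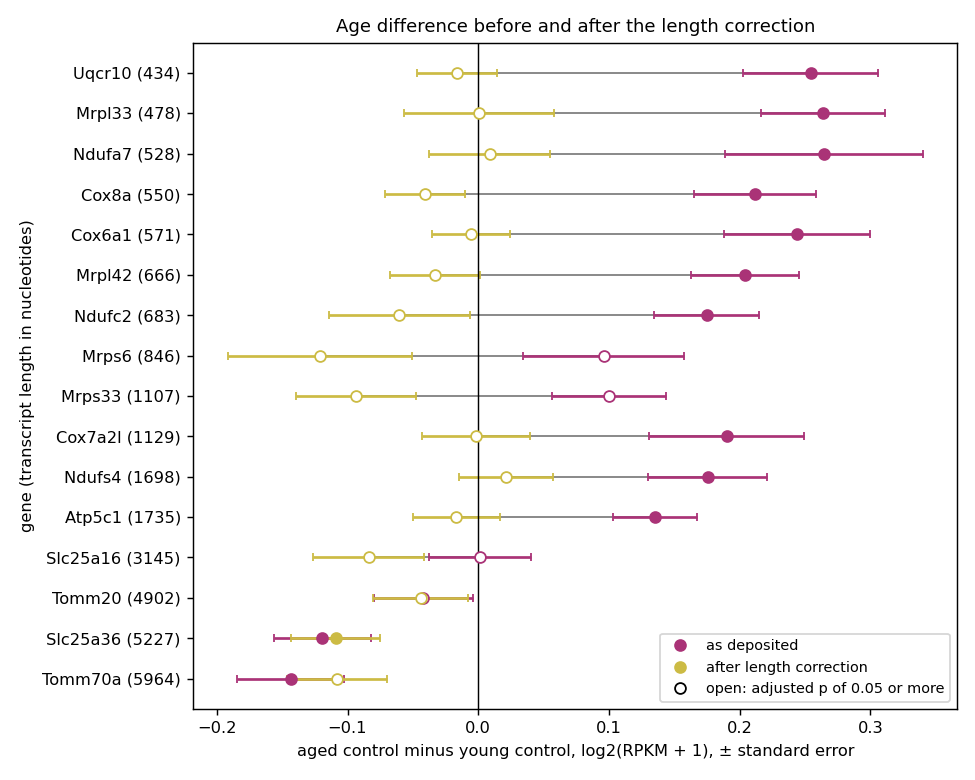
Age difference (aged control minus young control, log2(RPKM + 1), ± standard error) of the 16 genes, ordered by transcript length in nucleotides (in brackets), as deposited in purple and after the length correction in yellow, with filled points for an adjusted p under 0.05. The 12 genes up to *Atp5c1* (1735 nt) move from between 0.10 and 0.26 down to between -0.12 and 0.02, and the long genes *Slc25a36* and *Tomm70a* stay near -0.11.

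Microglial repopulation of the aged brain was compared with the same aged controls, so its differences and those of age share 3 libraries and are given side by side only. In aged-repopulated mice 2 of the 16 genes fell (*Ndufs4* and *Mrpl33*) and none rose, against 5.81% of the table called lower and 2.9% called higher. The direction of the table's calls depended on the scaling, with 20 genes higher and 40 lower here, 111 and 22 after centring, and 52 and 21 after quantile normalization. At an unadjusted p under 0.05 there were 5 of the 16, and 271 of the 689 genes of the table. The median difference was -0.07 (-0.05 over the table), with 13 genes below 0 and 3 above. The median was -0.018 after centring and -0.012 after quantile normalization. After the length correction it was 0.016, with 11 genes above 0 and 5 below. Repopulated and aged control values were fully apart for 4 of the 16 (*Ndufs4*, *Mrpl33*, *Atp5c1*, *Slc25a36*), against 37.4% of the table.

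*Ndufs4* was at 24.9, 23.0 and 25.5 RPKM in the 3 aged-repopulated mice, all below the lowest aged control at 27.3. It fell by 0.21 ± 0.05 on the log2 scale (adjusted p = 0.0375), and its mean RPKM fell by 13.9%. *Mrpl33* was at 18.3, 19.5 and 20.4 RPKM, below the lowest aged control at 21.6, and fell by 0.19 ± 0.05 (adjusted p = 0.0452). Both calls stood near the threshold. They were kept without aged control replicate 1 (adjusted p = 0.0220 for *Ndufs4* and 0.0487 for *Mrpl33*) and both were lost without any other single library, with adjusted p of 0.0506 to 0.0806 for *Ndufs4* and 0.0580 to 0.0959 for *Mrpl33*. Without aged control replicate 1, *Cox7a2l* (adjusted p = 0.0378) and *Cox8a* (0.0311) were called as well. After centring and quantile normalization *Ndufs4* stayed called (adjusted p = 0.0258 and 0.0372) and *Mrpl33* did not (0.0808 and 0.101), while *Slc25a36* was called higher, as were more genes of the whole table under both scalings. Both calls were also lost with only the compared groups in the fit (adjusted p = 0.0951 for *Ndufs4* and 0.0973 for *Mrpl33*) and without variance moderation (0.0679 and 0.0693), and that of *Mrpl33* on untransformed RPKM (0.0512).

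**Figure D4:**
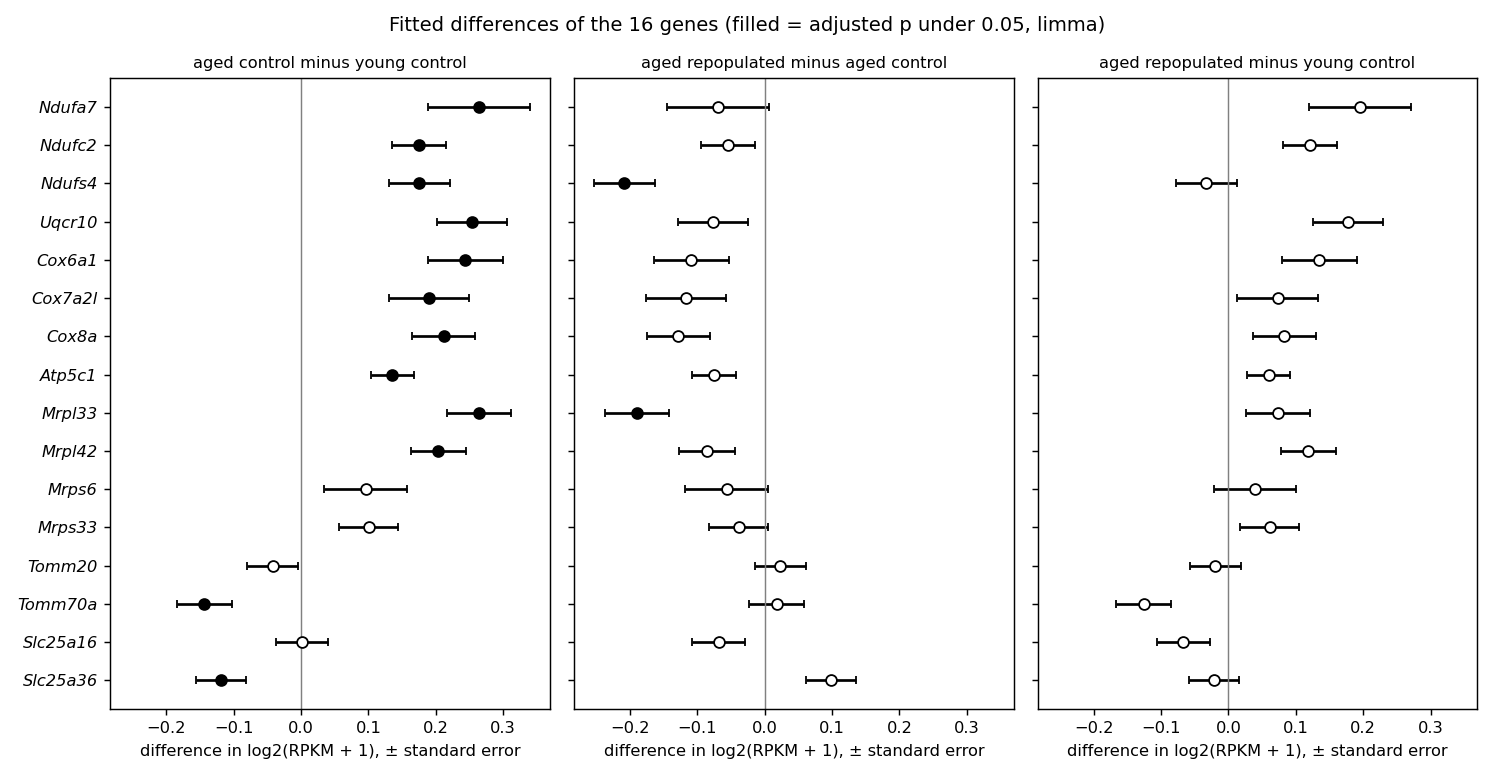
Fitted differences of the 16 genes in log2(RPKM + 1) with their standard errors, for aged control minus young control, aged repopulated minus aged control and aged repopulated minus young control, with filled points for a limma adjusted p under 0.05. In the left panel 12 points are filled, in the middle panel only *Ndufs4* and *Mrpl33*, and in the right panel none.

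The other respiratory genes did not pass the test with repopulation. The aged-repopulated mice had 269.8, 265 and 289 RPKM of *Cox6a1* (-0.11 ± 0.06, limma adjusted p = 0.163), a difference of -0.04 without aged control replicate 2. They had 282, 266 and 286 RPKM of *Cox8a* (-0.13 ± 0.05, adjusted p = 0.0891). *Cox8a* met the aged controls only at their lowest mouse, which was also at 286 RPKM, whereas *Cox6a1* overlapped more widely. *Uqcr10* was at 92.7, 87.1 and 97.6 RPKM (-0.08 ± 0.05, adjusted p = 0.263, and -0.03 without aged control replicate 2) and *Cox7a2l* at 49.4, 47.3 and 52.0 (-0.12 ± 0.06, adjusted p = 0.163). Both overlapped with the aged controls. *Atp5c1*, at 82.9, 83.7 and 86.8 RPKM, lay between young and aged controls without touching either, with a difference from aged controls of -0.08 ± 0.03 (adjusted p = 0.116). *Ndufc2* was at 77.4, 78.7 and 82.1 RPKM (-0.05, adjusted p = 0.3003) and *Ndufa7* at 33.0, 31.3 and 34.4 (-0.07, adjusted p = 0.473).

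Among the ribosome, import and carrier genes, *Mrpl42* was at 28.0, 28.4 and 30.2 RPKM after repopulation (-0.09 ± 0.04, limma adjusted p = 0.147). *Mrps6* spread from 18.9 RPKM to 23.0, wider than either control group, and *Mrps33* averaged 10.3 ± 0.539 RPKM. *Slc25a36* was at 13.0, 12.2 and 12.4 RPKM, above every aged control. Its difference of 0.10 ± 0.04 was not called (adjusted p = 0.0932), but was called after centring (0.15, adjusted p = 0.0235). *Tomm20* was at 53.0, 57.0 and 54.9 RPKM (0.02) and *Tomm70a* at 50.7, 51.3 and 53.0 (0.02). *Slc25a16* averaged 10.7 ± 0.473 RPKM (-0.07, and -0.035 without aged-repopulated replicate 3). *Tomm20*, *Tomm70a* and *Slc25a16* overlapped with the aged controls.

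Length ran the other way here. Spearman's rho between length and the repopulation difference was 0.57 across the 16 genes and 0.65 across the other 670, over the same 6 libraries for every gene. All 13 shorter members were below 0, as were all but 47 of the table's 343 shorter genes. After the length correction none of the 16 was called by limma (2 at an unadjusted p under 0.05, beside 6 called and 128 at that p of 686 in the table), with *Ndufs4* at -0.11 ± 0.04 (adjusted p = 0.154) and *Mrpl33* at -0.08 ± 0.06 (adjusted p = 0.471).

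The third comparison asked how far aged-repopulated mice stood from young controls. By limma none of the 16 genes was called, against 4.21% of the table called higher (29 genes) and 0.726% called lower (5 genes), and 6 had an unadjusted p under 0.05, as did 196 of the 689 genes of the table. The table's calls were 23 higher and 38 lower after centring, 18 and 25 after quantile normalization, and 24 and 35 after length correction. The median difference was 0.07 (0.04 over the table), and 0.040 without aged-repopulated replicate 3. Values did not overlap for 7 genes (42.7% of the table). Of these, *Ndufa7* (0.19 ± 0.08, adjusted p = 0.124), *Uqcr10* (0.18 ± 0.05, 0.0665), *Cox6a1* (0.13 ± 0.06, 0.146), *Ndufc2* (0.12 ± 0.04, 0.0892), *Mrpl42* (0.12 ± 0.04, 0.1001) and *Atp5c1* (0.06 ± 0.03, 0.222) were above the young controls. *Tomm70a* was below them (-0.13 ± 0.04, adjusted p = 0.0875), and was called after centring (-0.18, adjusted p = 0.0266), 1 of the 38 genes of the table then called lower. *Uqcr10* was called without aged-repopulated replicate 2 (0.22, adjusted p = 0.0366). *Ndufs4* was at -0.03 ± 0.05 (adjusted p = 0.643). After the length correction none of the 16 was called. *Ndufa7* was then at 0.05, *Uqcr10* at 0.0068, *Cox6a1* at 0.00052, *Ndufc2* at 0.0070, *Mrpl42* at 0.0022 and *Atp5c1* at 0.0049, and *Tomm70a* at -0.13. Spearman's rho between length and the difference from young controls was -0.87 across the 16 genes and -0.30 across the other 670.

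Other nuclear genes of mitochondria, from a list of 127 outside the searched letters, were present as 11 rows. With age 6 of the 11 rose (*Higd2a*, *Idh2*, *Samm50*, *Pink1*, *Park7*, *Pisd*), 2 fell (*Ogdh*, *Opa1*) and *Pmpca*, *Dnm1l* and *Gfm1* were not called. After centring 1 was called higher and 4 lower, after quantile normalization 2 and 4, after GC correction 1 and 3, and after length correction 1 and 2. Their median was 0.12, and -0.01 after the length correction. *Idh2*, the NADP-dependent isocitrate dehydrogenase, went from 15.5 ± 1.69 to 18.7 ± 1.68 RPKM (SD, n = 3, 0.26 ± 0.08, limma adjusted p = 0.0200). *Samm50*, which inserts barrel proteins into the outer membrane beside the import receptors, rose by 0.12 (adjusted p = 0.0283), and *Opa1*, which fuses inner membranes, fell by 0.11 (adjusted p = 0.0151). With repopulation none of the 11 was called by limma, 4 had an unadjusted p under 0.05, and their median was -0.03. Against young controls 1 was called, *Pisd* (0.50 ± 0.06, adjusted p = 0.00252), whose sequence is partly shared with pseudogenes.

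Cytosolic ribosomal proteins, whose transcripts are about as short as those of the members (median 1047 nt), were set beside them. All 23 in the table rose with age, with a median of 0.24. After centring all 23 stayed above 0 (12 called), and after quantile normalization 20 did (9 called). With repopulation 3 of the 23 were called lower (*Rps19*, *Rpl14*, *Rpl7l1*), with a median of -0.12, and 2 were called higher against young controls (*Rps3a1*, *Rpl35a*), with a median of 0.11. After the length correction 18 of the 23 stayed above 0 with age (median 0.045), and 2 were called. In the other comparisons 0 were then called, with a median of -0.015 for repopulation. Against young controls 19 were above 0 after that correction (median 0.036). After GC correction 17 of the 23 stayed called with age. Against young controls 1 was called after centring and 0 after quantile normalization. The difference between the mitochondrial and cytosolic lists was not tested.

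Cell type markers moved with age as well. Of the table's 8 microglial markers of a list of 12, 7 rose with age (median 0.78) and none was called with repopulation (limma), while 7 were higher in aged-repopulated mice than in young controls (median 0.72). Their summed RPKM was 155 to 161 in young mice, 229 to 272 in aged controls and 219 to 318 after repopulation. Of 11 neuronal markers 3 were in the table (*Rbfox3*, *Map2*, *Gad1*), summing to 282 to 298, 293 to 314 and 289 to 294 RPKM in the same order, with 2 higher and 1 lower with age and 1 lower with repopulation (median -0.10). Of 8 oligodendrocyte markers only *Opalin* was in the table, at 15.5 to 19.0, 10.9 to 13.2 and 12.1 to 19.2 RPKM, and it fell with age. Markers of endothelium were 3 of 6, at 55.9 to 56.1, 46.6 to 53.7 and 41.9 to 51.5 RPKM. Of these 3, 1 was higher and 1 lower with age, 1 was lower with repopulation (median -0.31) and 1 was lower against young controls (median -0.34). Of the 8 astrocyte, 2 oligodendrocyte precursor, 2 pericyte, 4 ependyma and choroid plexus and 5 blood markers listed, 0 were among the 689 rows, and the part of cell numbers in the members' differences was not tested.

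Some members share sequence with other genes, and how the study's counting split such reads was not stated. Over stretches of 50 bases, 6 members shared none (*Ndufc2*, *Ndufs4*, *Uqcr10*, *Cox8a*, *Slc25a16*, *Tomm70a*). Shares above 20% were found for *Mrps6* (32.2%, with *Gm49711* and *Slc5a3*), *Mrpl33* (30.3%, with *Gm43809*) and *Mrps33* (20.98%, with *Gm5776*). *Mrpl42* (18.8%), *Cox7a2l* (17.7%), *Cox6a1* (12.3%), *Slc25a36* (11.8%), *Tomm20* (6.31%), *Atp5c1* (3.97%) and *Ndufa7* (1.88%) shared fewer. On the same strand, exons of *Mrps6* overlap those of *Gm49711* and *Slc5a3* by 305 bases, and exons of *Mrpl33* overlap those of *Gm43809* by 177 bases. *Tomm70a* overlaps *Nit2* by 41 bases on the opposite strand. Values of the members with shared stretches are therefore uncertain, but a share of sequence does not measure by how much. Only annotated transcripts were searched.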

How the data were processed

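RNA-seq of 1 hemibrain per mouse was analysed in 9 libraries. The authors called bases with CASAVA 1.8.2, mapped reads with ELAND on mm10, and derived RPKM, and a linear model was fitted to genes above 10 RPKM. The deposited table holds RPKM of 689 genes called by it, not pooled. It also holds the authors' F and t scores and p-values in 5 columns, which were not used. All library columns were mapped (0 left over), and no 2 libraries were identical. Whole-read steps were searched in 346 genes; the best mean cosine was 0.152 to 0.181 (perfect steps give 1), so depth is unknown.

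Groups came from the labels, which name 1 mouse per library. All 9 libraries entered one limma 3.58.1 fit (R 4.3.3) of log2(RPKM + 1), with 3 contrasts adjusted over 689 genes. The code was tested on simulated data. Lengths and GC came from the longest coding transcript in GENCODE M21 for GRCm38 (mm10), where 686 symbols matched, 19 through an older one. Coordinates of the genes are those of the whole gene in the same annotation. Length and GC were corrected by loess per library. Python 3.11.15 was used.

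The members and lists were chosen with earlier results of these data known. Of the rows found by the letters, 1 is not reported here. Per-mouse values were to be given for up to 10 called members per contrast with the largest differences and for the most abundant member of each role. Alternatives were a pseudocount of 0.1 or 10, untransformed RPKM, centring, quantile normalization, length or GC correction, a minimum mean of 20 RPKM (341 genes), only the groups compared, no variance moderation and each library left out.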

Additional observations from a re-analysis of the deposited data

How the results depend on the processing

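Of 468 single-gene differences recomputed under other settings, 387 kept their direction and side of the threshold. With the direction kept, 31 lost a call and 6 gained one, and 44 changed sign. Some of those that changed sign also lost their call, such as *Atp5c1* with age after length correction. With 1 library left out, 394 of 432 were kept, 25 lost a call, 3 gained one and 10 changed sign. The causes were not tested, except where fewer samples or the correction itself sets the change. With age, 12 members were called, 9 to 12 with 1 library left out, and 6 after centring, 5 after quantile normalization, 1 after length correction and 7 after GC correction. The median age difference was 0.14 with a pseudocount of 10, 0.067 centred, -0.0032 after quantile normalization, -0.037 after length correction and 0.093 after GC correction. With repopulation, the 2 calls became 1 with untransformed RPKM or a minimum mean of 20 RPKM, 0 after length correction, with only the groups compared or without variance moderation, and 0 to 4 with 1 library left out. After centring and quantile normalization the 2 calls were 1 lower (*Ndufs4*) and 1 higher (*Slc25a36*). The repopulation median became -0.018 centred, -0.012 quantile normalized, 0.016 after length correction and -0.039 after GC correction, and ranged from -0.11 to -0.060 with 1 library left out (-0.11 without aged repopulated replicate 3). Against young controls 1 member was called centred or quantile normalized and 0 to 1 with 1 library left out, and the median became 0.014, -0.011, -0.022 and 0.023 after centring, quantile, length and GC correction.

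Signs changed with GC correction for *Slc25a16* (age -0.0016) and *Mrps6* (age -0.015, against young -0.020). Centring changed *Mrps33* (age -0.0075, repopulation 0.016), *Ndufc2* (repopulation 0.00024), *Slc25a16* (age -0.11) and *Mrps6* (age -0.012, against young -0.014). Quantile normalization changed *Atp5c1* (age -0.075, against young -0.096), *Cox6a1* (repopulation 0.016), *Ndufc2* (age -0.021, repopulation 0.021), *Slc25a16* (age -0.067), *Mrps6* (age -0.029, repopulation 0.0057, against young -0.023) and *Cox8a* (age -0.030, against young -0.031). Length correction changed the age difference of *Atp5c1* (-0.017), *Cox6a1* (-0.0057), *Mrps33* (-0.093), *Ndufc2* (-0.060), *Slc25a16* (-0.084), *Mrpl42* (-0.033), *Uqcr10* (-0.016), *Mrps6* (-0.12), *Cox7a2l* (-0.0018) and *Cox8a* (-0.041). It changed the repopulation difference of *Atp5c1* (0.022), *Cox6a1* (0.0062), *Mrps33* (0.082), *Ndufc2* (0.067), *Mrpl42* (0.035), *Uqcr10* (0.023), *Tomm70a* (-0.024), *Mrps6* (0.068), *Ndufa7* (0.042) and *Cox7a2l* (0.0033), and the difference from young controls of *Mrpl33* (-0.083), *Mrps33* (-0.011), *Mrps6* (-0.054) and *Cox8a* (-0.055). With 1 library left out, the repopulation difference ranged from -0.0032 to 0.048 for *Tomm20*, -0.00039 to 0.04 for *Tomm70a*, -0.12 to 0.018 for *Mrps6* and -0.13 to 0.020 for *Ndufa7*. The difference from young controls ranged from -0.048 to 0.0057 for *Tomm20*, -0.062 to 0.0098 for *Ndufs4* and -0.02 to 0.11 for *Mrps6*, and the age difference from -0.021 to 0.019 for *Slc25a16*.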
